A study of Mus musculus with 8 samples.

Results

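The miRNAs numbered miR-297, miR-466, miR-467 and miR-669 are a rodent family whose precursor hairpins are built largely of simple repeats. They were read here through every capture probe whose mouse name carries one of these 4 numbers, with any letter, arm or locus suffix, and a probe with several names was counted once. This gave 71 of the 1034 mouse miRNA probes on the array, which held 2607 capture probes in all. Of these, 5 were for miR-297, 26 for miR-466, 13 for miR-467 and 27 for miR-669. The rule used names alone and no measured value, but it was set with earlier results of these data known. The 71 probes covered 80 names, 9 probes carried more than 1 name, and the probe with the most carried 5. Every member was printed as 4 spots.

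The RNA came from the amygdala, a brain region on which learned fear depends, of adult male C57/Bl6J mice. One group of 4 mice stayed in the home cage, and the other 4 were exposed to 5 pairings of a 6 kHz tone with a 0.6 mA shock and were killed 30 min afterwards. Bilateral punches of 1 mm were taken from every animal, so each array stands for 1 mouse, and 500 ng of its total RNA carried the dye Hy3. A pool made of RNA of all the animals carried Hy5 on the same slide. The labels give no tone-only, shock-only or handled group, so learning cannot be told apart from the rest of the procedure. A punch is bulk tissue, in which fewer cells of a type and less RNA per cell cannot be told apart.

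A miRNA hairpin yields a strand from its 5′ side (5p) and a strand from its 3′ side (3p), and in the older naming of this array an asterisk marks the strand taken to be the less abundant. A miRNA finds its target messenger RNAs mainly through its seed, bases 2 to 8 counted from its 5′ end. Most hairpins of this family lie in a long array inside an intron of Sfmbt2, a mouse Polycomb group gene that is imprinted and expressed from the paternal copy, and the cluster is best known from placenta and embryonic stem cells. Its strands are rich in U and G on the 5p side and in A and C on the 3p side and resemble each other closely, so a capture probe may also bind relatives of the strand it is named for. How much of a signal came from such relatives was not tested.

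In the RefSeq gene annotation of mouse (GRCm38.p6), 81 hairpin genes carry these 4 numbers, 71 of them inside Sfmbt2 on chromosome 2 and 10 elsewhere, spread over 7 other chromosomes. By name, 57 members correspond to hairpins inside Sfmbt2 only, 8 to hairpins elsewhere only and 6 to both. A single member matched up to 14 hairpin genes, counted over all the names on its probe. Copies with the same mature name also recur along the cluster.

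RefSeq mature sequences (GRCm38.p6) were at hand for 7 of the 71 members, all from hairpins outside Sfmbt2. They are shown because they display the 2 kinds of repeat that the family carries, read 5′ to 3′ with the seed in capitals. The first 3 carry repeats of C and A.
mmu-miR-467f: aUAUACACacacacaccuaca
mmu-miR-467g: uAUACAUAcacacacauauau
mmu-miR-466i-3p: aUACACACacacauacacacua
The other 4 carry repeats of U and G.
mmu-miR-669n: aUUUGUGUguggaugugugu
mmu-miR-466j: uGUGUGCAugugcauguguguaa
mmu-miR-467h: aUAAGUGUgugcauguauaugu
mmu-miR-466k: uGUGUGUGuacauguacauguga
Their positions are chr11:69635419-69635439 on the minus strand for miR-467f, chr5:34732872-34732892 on the minus strand for miR-467g and chr13:17747552-17747573 on the plus strand for miR-466i-3p. For the others they are chr3:115979905-115979924 on the plus strand for miR-669n, chr10:60960802-60960824 on the plus strand for miR-466j, chr9:115381898-115381919 on the plus strand for miR-467h and chr3:85467396-85467418 on the plus strand for miR-466k.

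The 7 seeds all differ, so none of these members shares a seed group with another, although the repeats around the seeds are alike. All 7 hold UGUGUG or CACACA on the strand of the miRNA, letters that 40 of the 1679 RefSeq mature mouse miRNAs counted (2.38%) hold. The count left out the miRNAs of a single chromosome. These 7 are among the 40, and the sequences of the other members were not in the set. The longest run shared by any of the 21 pairs was 13 bases, auacacacacaca, between miR-467f and miR-466i-3p, and the shortest was 2 bases. A and C made up 85.7% of miR-467f and 86.4% of miR-466i-3p, whereas G and U made up 90% of miR-669n. The probe named miR-466k exceeded the negative control probes on 0 of 8 arrays, and the probes of the other 6 did so on all 8.

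Most probes of the family gave a signal above the negative controls in amygdala. Whether that signal came from the strands they are named for was not tested. A probe was called above the controls on an array where its signal exceeded the 95th percentile of the 28 spots of 7 negative control probes there. By this measure 56 of the 71 members (78.9%) were above the controls on all 8 arrays, against 480 of 1034 mouse probes (46.4%) and 424 of the 963 mouse probes outside the family (44%). Only 9 members (12.7%) were above them on no array, against 25.3% of all mouse probes. Between 57 and 59 members were above them on each array, with no group standing apart. With the 99th percentile 53 members were above on all 8 arrays, and with empty spots added to the controls 67 were. The shares of all mouse probes at these other limits were not counted.

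Detection was also counted by the arm in the name. Above the controls on all 8 arrays were 13 of 14 asterisked members, 13 of 16 named 3p, 14 of 17 named 5p and 16 of 24 with no arm in the name. For 3p and asterisked names together this was 26 of 30 (86.7%), against 139 of 425 mouse probes outside the family (32.7%). For 5p names and those with no arm it was 30 of 41 (73.2%), against 285 of 538 (53%). In 4 hairpins the asterisked strand was above the controls on all 8 arrays while the unmarked strand was above them on at most 1. These were miR-467c, miR-467d and miR-669k with 0 arrays for the unmarked strand, and miR-669b with 1. The opposite was seen for miR-466h and miR-466o, whose 5p probes were above the controls on 8 arrays and whose 3p probes were above them on 0. The 5p probe of miR-466o also carries the name miR-466b-5p, so its signal cannot be given to the miR-466o hairpin alone. Probes differ in how strongly they bind, so these counts describe detection by each probe and not the amount of the strand.

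Members ran from 6.11 to 8.97 in mean Hy3 signal, which is log2 after background correction and quantile normalisation, with a median of 7.09. The median over all mouse probes was 6.55, and their highest was 15.18. The family lay in the lower part of the array's range. Of the neuron miRNAs used to check the tissue, all 5 probes were above the controls on every array, at home cage means of 9.26 to 14.46. Muscle miRNA probes lay between 6.33 and 6.76. Of the marker probes for other cell types, 1 of 1 oligodendrocyte, 1 of 2 choroid plexus, 6 of 6 blood, 2 of 3 vessel, 1 of 1 liver, 2 of 4 muscle and 6 of 15 embryonic stem cell probes were above the controls on all 8 arrays. The repeat spots of a member on one array had a median SD of 0.046, and the arrays of one group a median SD of 0.056, so single spots of one array varied about as much as the mean of 4 spots did between mice. With 4 arrays a group, precision is set by the number of arrays.

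**Figure D1:**
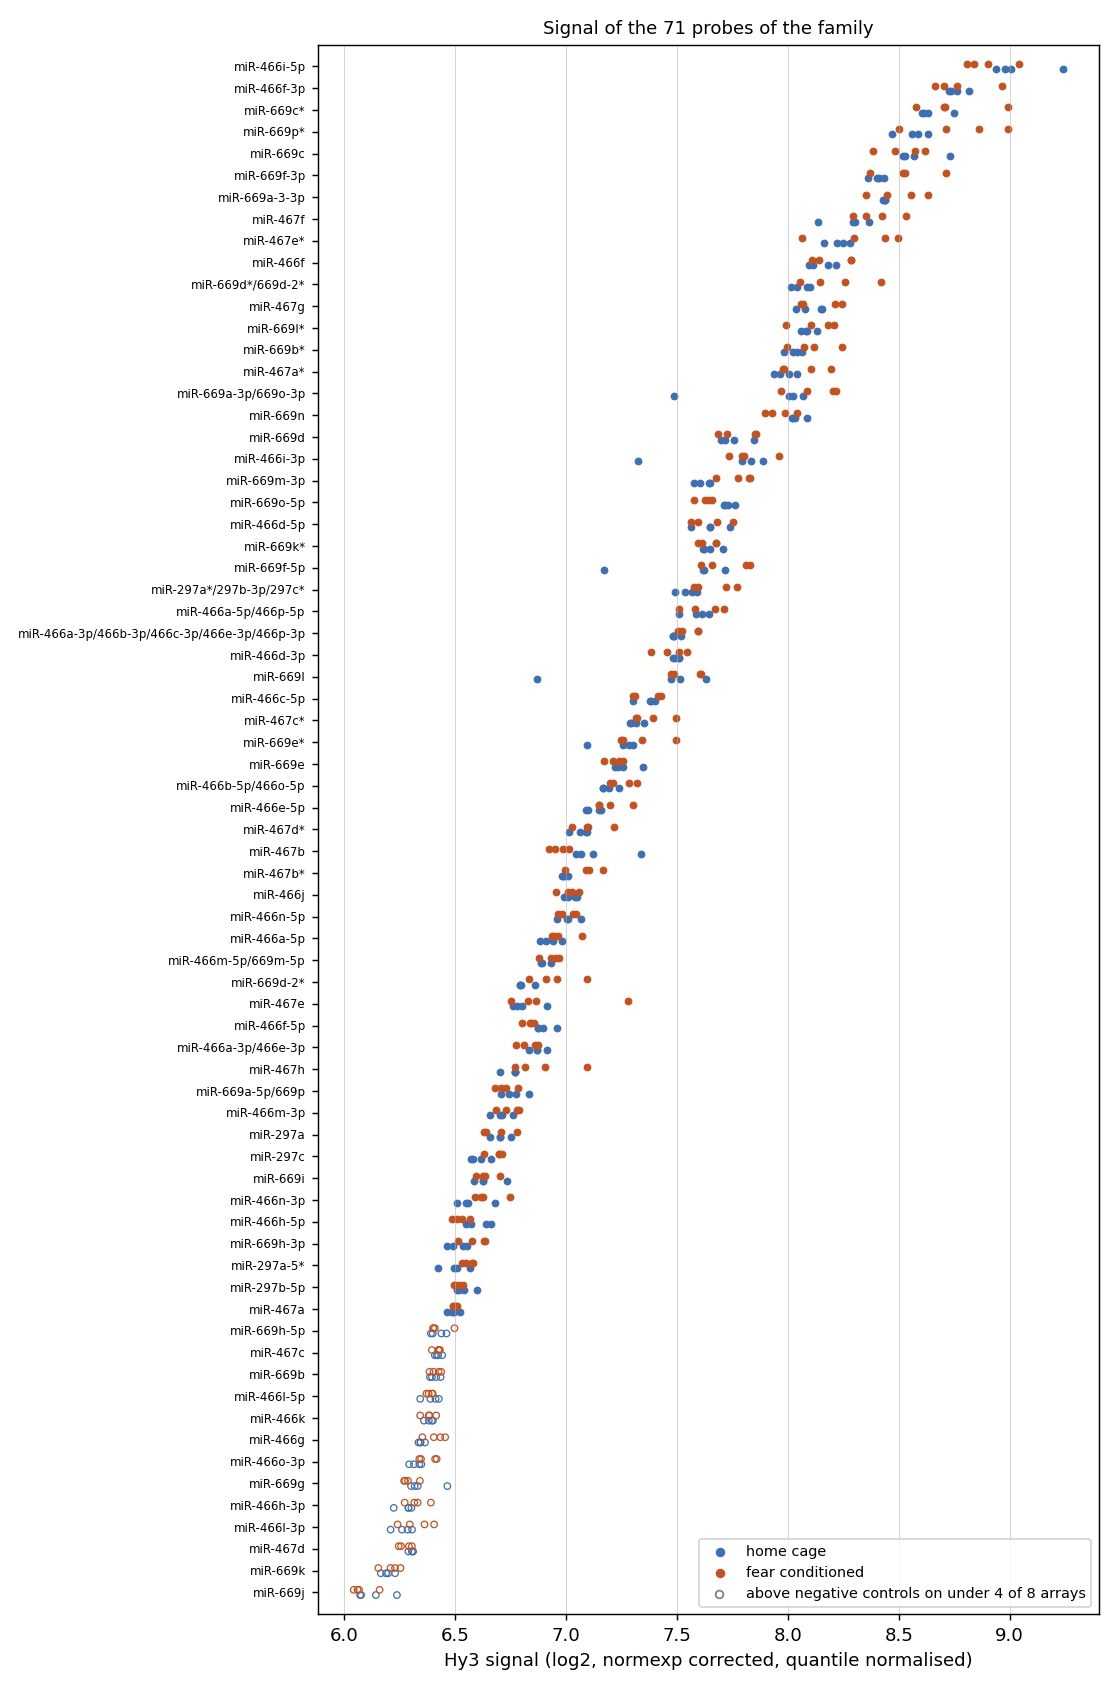
Hy3 signal (log2) of the 71 members on each of the 8 arrays, 1 row per probe, in order of mean signal; filled points are members above the controls on at least 4 arrays. The home cage (blue) and fear conditioned (orange) points of nearly every member overlap, and the single low blue points of miR-669l, miR-669a-3p/miR-669o-3p, miR-466i-3p and miR-669f-5p are all from home cage array 1.

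No member of the family passed the test between fear conditioned and home cage mice. In Hy3, 0 of 71 members passed at an adjusted p under 0.05 (limma with Benjamini-Hochberg over all 1034 mouse probes, two-sided), where 2 probes in all (0.193%) did, and the lowest adjusted p of a member was 0.152. The deposited ratio is likely that of sample to pool, since the scanned channel lights the landmark spots named Hy3 (the dye the labels give to the mice) and correlates positively with it, but no source used here states its direction. In this ratio 0 of 71 members and 0% of 1033 probes passed, and the lowest adjusted p of a member in limma was 0.584. At an unadjusted p under 0.05, Hy3 gave 6 members higher after conditioning (8.45%, against 5.03% of all mouse probes) and 4 lower (5.63%, against 9.09%). Among the 6 higher was miR-466g, whose probe was above the controls on only 1 array and which is not among the 6 higher members described below. Read as sample to pool, the ratio gave 15 higher (21.1%, against 6.29%) and 0 lower (against 1.36%). Read the other way, these 15 are lower.

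The members' differences leaned to higher values after conditioning in Hy3, and more so in the ratio read as sample to pool. In Hy3, 46 of 71 members had a difference above 0 (64.8%), against 47.7% of all mouse probes, and the median difference was 0.042 against -0.0043. The ratio was above 0 for 66 of 71 members (93%), against 63.2% of all mouse probes, and the median difference was 0.11 against 0.031. With the sign of the ratio turned, 5 of 71 members (7.04%) and 36.8% of mouse probes were above 0, with medians of -0.11 and -0.031. The sign of every ratio and ratio difference given for a member or group turns likewise. The members resemble each other in sequence and share the same 8 arrays, so they are not independent and no test was made over them. Taking only the 58 members above the controls on 4 or more arrays, 39 were above 0 in Hy3 and 56 in the ratio.

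The size of these differences was small. They ran from -0.18 to 0.22 in Hy3 and from -0.096 to 0.29 in the ratio, where 1 unit of log2 is a doubling. The family's median stayed above that of all mouse probes under every background correction, scaling, treatment of flagged spots and left-out array tried, all of which use the same mice. It was 0.23 against 0.057 when each array was centred on its median, and 0.019 against -0.15 when each was centred on the spike-in spots. That last scaling moved the median of all mouse probes by more than 0.1, and the family is to be read relative to it. Without fear conditioned array 3 the Hy3 median was 0.014 and the ratio median 0.072, the lowest values with any single array left out.

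**Figure D2:**
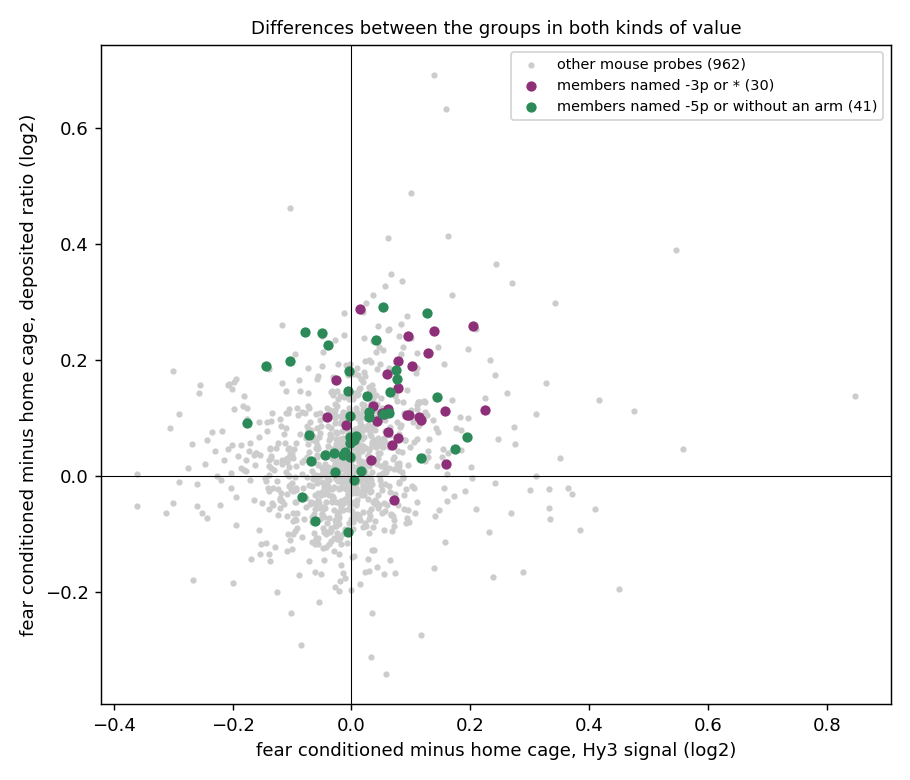
Difference between fear conditioned and home cage means (log2) in Hy3 signal (horizontal) and in the deposited ratio (vertical), 1 point per probe; grey points are mouse probes outside the family. Of the 71 members, 66 lie above the horizontal line with the ratio read as sample to pool (5 with its sign turned), while in Hy3 the members named 3p or with an asterisk lie mostly to the right (27 of 30) and the others on both sides (19 of 41).

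The values of the groups stood apart, with no overlap between any of the arrays, for few members. In Hy3 this held for 1 of the 70 members with 8 values in the higher direction (1.43%, against 4.09% of mouse probes) and for 3 in the lower (4.29%, against 5.38%). In the ratio it held for 7 of 70 higher (10%, against 4.32%) and 0 lower (against 1.11%). The member without 8 values was miR-466m-5p/miR-669m-5p, whose 4 spots on home cage array 1 were all flagged.

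In Hy3 the lean to higher values lay mostly with the members named 3p or with an asterisk. These classes follow the names, and an asterisk or a missing arm does not give the side of the hairpin. The unmarked miR-467f and miR-467g, which carry repeats of C and A, count with the 5p members. Of the 30 members named 3p or with an asterisk, 27 were above 0 with a median difference of 0.075. Of the 41 named 5p or with no arm, 19 were above 0 with a median of -0.0031. Among other mouse probes the same split gave 202 of 425 with a median of -0.0046 and 245 of 538 with a median of -0.0073. In the ratio both classes leaned the same way, 29 of 30 and 37 of 41 above 0, with medians of 0.11 and 0.092. With other treatments of Hy3 the counts above 0 were 30 of 30 and 34 of 41 (median centring), 22 of 30 and 18 of 41 (spike-in centring), and 25 of 30 and 30 of 41 (no background correction). Without home cage array 1 they were 27 of 30 and 27 of 41, with medians of 0.068 and 0.0081. Leaving out spots of high local background, an alternative added after the data were seen, gave 28 of 30 and 27 of 41, with medians of 0.074 and 0.0081. The classes also differed in brightness. Median Hy3 signal was 7.56 for the 3p and asterisked members and 6.92 for the others. The same split of other mouse probes gave 6.44 and 6.66, so that comparison is not matched for brightness. The part of brightness in the split was not tested. The split by arm was made with these values in view, and its difference was not tested.

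Array by array, the highest medians of the 3p and asterisked members were on fear conditioned arrays 1 and 3. The median deviation of these members from their own home cage means was 0.088, 0.023, 0.18 and 0.022 on fear conditioned arrays 1 to 4, and -0.0055, -0.0061, -0.0056 and 0.013 on home cage arrays 1 to 4. All 4 conditioned arrays lay above all home cage arrays, with arrays 2 and 4 close to home cage array 4. The difference of these members had a median of 0.074 without fear conditioned array 1 and 0.041 without array 3, with 27 and 26 of 30 above 0. For the 5p and unmarked members the conditioned arrays were at 0.020, -0.012, 0.028 and -0.041 and the home cage arrays at 0.035, -0.016, -0.0077 and -0.013, and the groups overlapped. Relative to the median of all mouse probes, the 3p and asterisked median ran from 0.044, without fear conditioned array 3, to 0.25 with median or spike-in centring. The median of the 5p and unmarked members relative to all mouse probes changed sign between settings, from -0.0070 with flagged spots kept to 0.12 with spike-in centring.

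In the deposited ratio the median over all 71 members was 0.037, 0.013, 0.017 and 0.13 on home cage arrays 1 to 4 and 0.12, 0.095, 0.25 and 0.14 on fear conditioned arrays 1 to 4. Home cage array 4 lay above fear conditioned arrays 1 and 2, so the groups overlapped, and fear conditioned array 3 was the highest. All 8 medians were above 0, whereas the medians over all mouse probes lay between -0.018 and 0.018. Raw brightness moved with group in the same direction. The median raw spot signal of the members was 105.7 to 123.5 on the home cage arrays and 124.6 to 164.5 on the conditioned arrays, and that of all mouse probes 76.8 to 80.6 and 82.4 to 88.6. The part of this brightness in the family's lean was not tested.

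**Figure D3:**
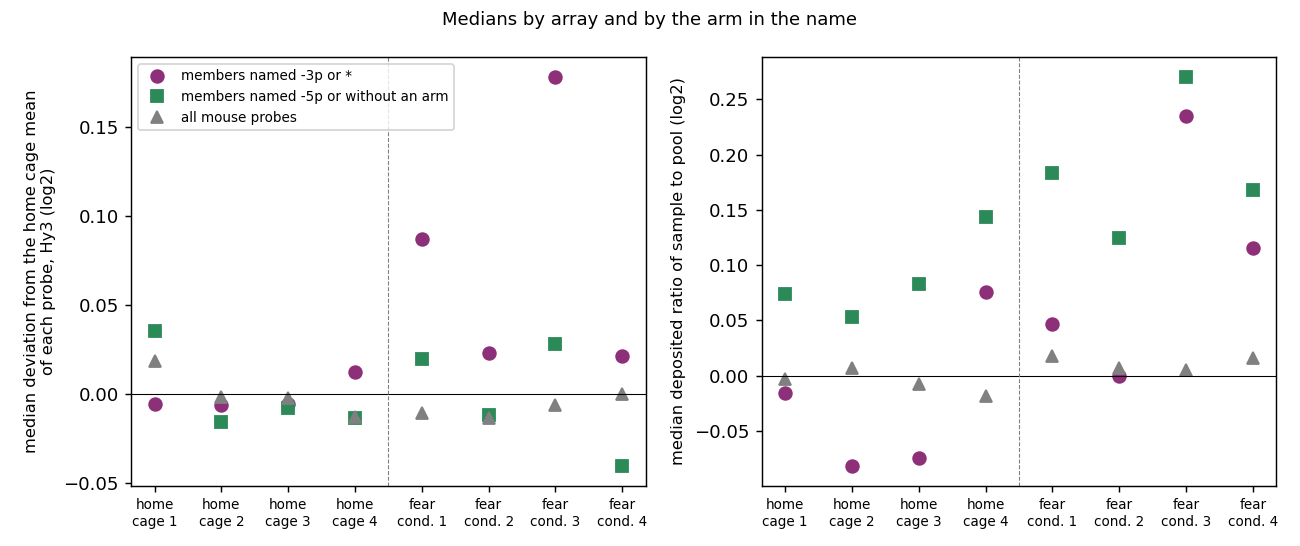
Medians by array (log2) of the 30 members named 3p or with an asterisk, the 41 other members and all mouse probes. The left panel shows the deviation of Hy3 from each probe's home cage mean, where fear conditioned arrays 1 and 3 carry the highest medians of the 3p and asterisked members (0.088 and 0.18); the right panel shows the deposited ratio, where home cage array 4 overlaps the conditioned arrays.

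The member with the smallest unadjusted p on the higher side was miR-669m-3p, a 3p strand of the Sfmbt2 cluster. Its Hy3 signal was 7.61, 7.58, 7.65 and 7.65 on home cage arrays 1 to 4 and 7.83, 7.78, 7.83 and 7.68 on fear conditioned arrays 1 to 4. Every conditioned array lay above every home cage array, and it was the only higher member of which this held in Hy3. The means were 7.62 ± 0.035 (SD, n = 4) and 7.78 ± 0.070 (SD, n = 4). They differed by 0.16 (SE 0.038, 95% interval 0.068 to 0.25), with an unadjusted p of 0.00368 and an adjusted p of 0.152 in limma. Its ratio differed by 0.11 (SE 0.073, 95% interval -0.050 to 0.27) and overlapped between groups, with home cage array 4 above fear conditioned arrays 1, 2 and 4.

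Next came miR-467b*, at 6.997, 7.01, 6.98 and 6.99 in the home cage and 7.09, 6.99, 7.17 and 7.10 after conditioning. Only fear conditioned array 2 lay within the home cage range. The difference was 0.094 (SE 0.036, 95% interval 0.011 to 0.18), with an adjusted p of 0.344 in limma. The probe for miR-669d-2* was at 6.80, 6.79, 6.79 and 6.86 in the home cage and 6.96, 6.83, 7.09 and 6.91 after conditioning. Of its conditioned arrays only array 2 fell below the highest home cage array, and array 3 was the highest. That difference was 0.14 (SE 0.053, 95% interval 0.016 to 0.26), but it was -0.047 with no background correction.

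Both strands of the miR-297c hairpin were among the higher members, whereas the unmarked miR-297a (-0.014) and miR-297b-5p (-0.028) were below 0 in Hy3. The probe for miR-297c was at 6.58, 6.66, 6.57 and 6.62 in the home cage and at 6.70, 6.63, 6.71 and 6.70 after conditioning, with array 2 the one conditioned value inside the home cage range. The difference was 0.076 (SE 0.029, 95% interval 0.0086 to 0.14) in Hy3 and 0.17 (SE 0.074, 95% interval 0.0035 to 0.33) in the ratio, and in Hy3 centred on the spike-in spots it was -0.053. One probe serves the opposite strand of 3 hairpins, miR-297a*/miR-297b-3p/miR-297c*, and read 7.54, 7.49, 7.57 and 7.59 in the home cage and 7.77, 7.59, 7.72 and 7.58 after conditioning. Fear conditioned arrays 1 and 3 were highest, and the difference was 0.12 (SE 0.049, 95% interval 0.0053 to 0.23). Last of the higher members, the probe shared by miR-466a-3p, miR-466b-3p, miR-466c-3p, miR-466e-3p and miR-466p-3p, was at 7.48, 7.48, 7.48 and 7.52 in the home cage and 7.60, 7.52, 7.59 and 7.51 after conditioning, with fear conditioned arrays 1 and 3 above the rest. Its difference was 0.062 (SE 0.028, 95% interval -0.0025 to 0.13).

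The 6 lower members with the smallest p were 5p or unmarked strands, while the 25 members below 0 in all held 22 such strands and 3 named 3p or with an asterisk. The smallest p was that of miR-669o-5p, at 7.76, 7.71, 7.72 and 7.73 on home cage arrays 1 to 4 and 7.65, 7.63, 7.66 and 7.58 on fear conditioned arrays 1 to 4. Every conditioned array lay below every home cage array. The difference was -0.10 (SE 0.025, 95% interval -0.16 to -0.046), with an unadjusted p of 0.00350 and an adjusted p of 0.152 in limma. The ratio of the same spots went the other way without overlap, at 0.091, 0.21, 0.21 and 0.23 in the home cage and 0.27, 0.39, 0.37 and 0.50 after conditioning, a difference of 0.20 (SE 0.064, 95% interval 0.056 to 0.34). Centred on array medians, Hy3 also gave a higher value after conditioning, by 0.18, and without background correction it gave 0.0076.

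The unmarked strand of miR-467b was at 7.34, 7.12, 7.07 and 7.04 in the home cage and 6.95, 6.99, 7.01 and 6.92 after conditioning, a difference of -0.18 (SE 0.063, 95% interval -0.32 to -0.029). All conditioned arrays lay below all home cage arrays, of which array 1 was far above the other 3, and without that array the difference was -0.12. In the ratio it was 0.092, and in Hy3 centred on array medians 0.032. The asterisked strand of the same hairpin is the miR-467b* described above, which differed in the opposite direction in Hy3 and by 0.11 in the ratio. miR-466f-5p was at 6.96, 6.87, 6.90 and 6.87 in the home cage and 6.84, 6.80, 6.86 and 6.84 after conditioning, again without overlap. It differed by -0.068 (SE 0.027, 95% interval -0.13 to -0.0062) in Hy3, by 0.026 in the ratio and by 0.089 in Hy3 centred on array medians.

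Of the other lower members, miR-466h-5p was at 6.66, 6.57, 6.64 and 6.55 in the home cage and 6.57, 6.51, 6.48 and 6.53 after conditioning, a difference of -0.083 (SE 0.033, 95% interval -0.16 to -0.0064), with fear conditioned array 1 inside the home cage range. It was the one of these 6 members whose ratio difference was also negative, at -0.036. The probe for miR-669n, the strand with UGUGUG shown above, was at 8.09, 8.02, 8.03 and 8.02 in the home cage and 7.99, 7.90, 8.04 and 7.93 after conditioning, with fear conditioned array 3 inside the home cage range. Its Hy3 difference was -0.078 (SE 0.035, 95% interval -0.16 to 0.0032). Its ratio was 0.20, 0.22, 0.27 and 0.27 in the home cage and 0.34, 0.44, 0.46 and 0.72 after conditioning. These ratios did not overlap and differed by 0.25 (SE 0.078, 95% interval 0.076 to 0.42), with an adjusted p of 0.584 in limma. In Hy3 the sign of miR-669n turned with median centring (0.22), spike-in centring (0.0076) and no background correction (0.020).

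**Figure D4:**
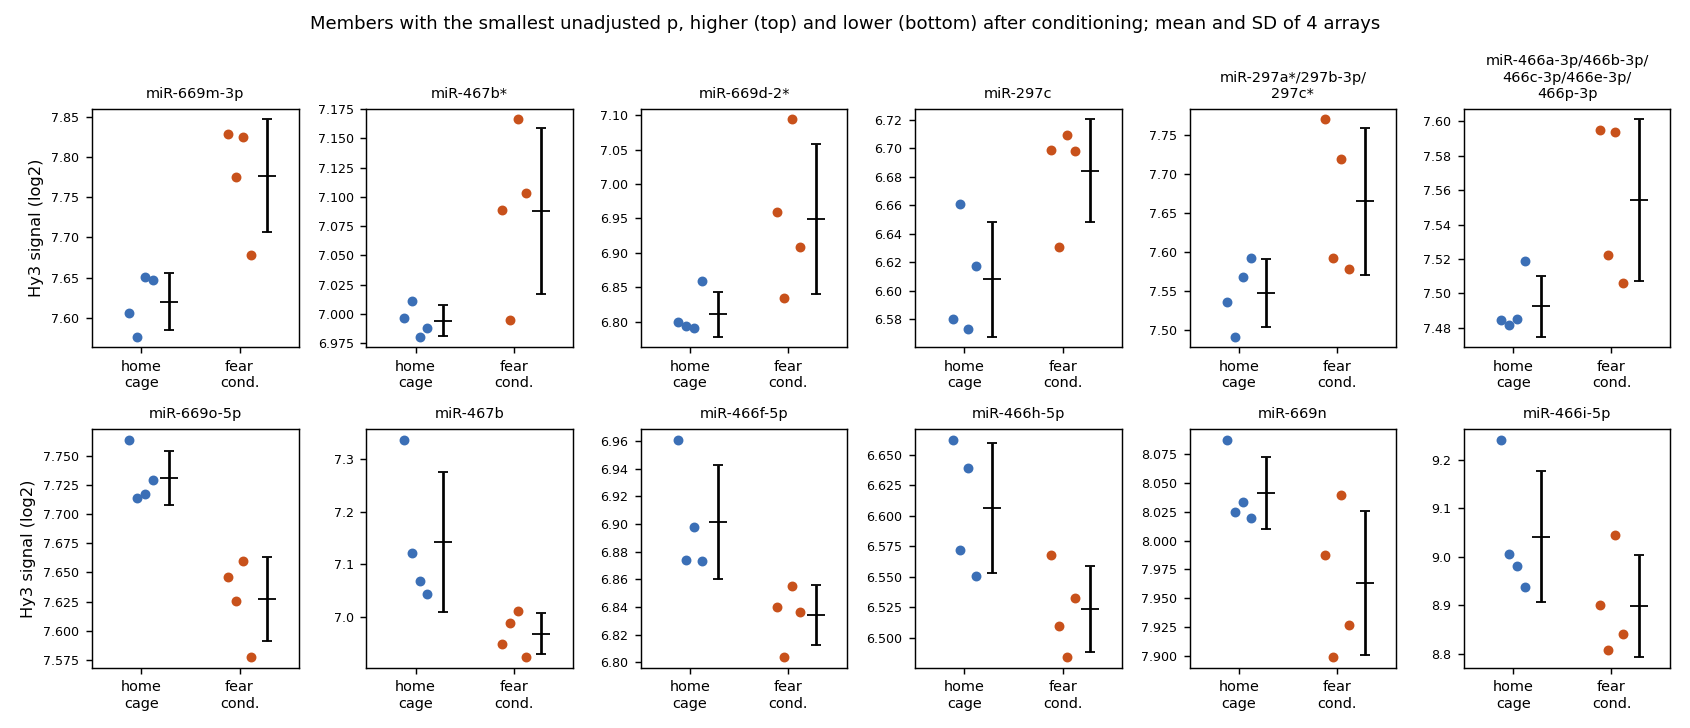
Hy3 signal (log2) of the 6 higher (top) and 6 lower (bottom) members with the smallest unadjusted p, 1 point per array in order of array number, with the mean and SD of the 4 arrays beside them; each panel has its own scale, which does not start at 0. Only miR-669m-3p (higher) and miR-669o-5p, miR-467b and miR-466f-5p (lower) show groups without overlap, and none passed after adjustment.

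The highest probe signal was that of miR-466i-5p, which is no measure of amount since probes bind differently. It is the 5p strand of a hairpin outside Sfmbt2 whose 3p strand is shown above. Its Hy3 signal was 9.24, 9.01, 8.98 and 8.94 in the home cage and 8.90, 8.81, 9.04 and 8.84 after conditioning, with fear conditioned array 3 inside the home cage range. The Hy3 difference was -0.14 (SE 0.077, 95% interval -0.32 to 0.035). Its ratio was 0.069, 0.049, 0.081 and 0.18 in the home cage and 0.27, 0.23, 0.44 and 0.20 after conditioning, without overlap, and the difference was 0.19 (SE 0.065, 95% interval 0.044 to 0.33). Centring Hy3 on array medians gave 0.22 and on the spike-in spots 0.012, so the direction of this member depends on the scaling.

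The probes next in signal were those of miR-466f-3p, miR-669c*, miR-669p*, miR-669c and miR-669f-3p. On fear conditioned array 3 each of these 5 had its highest Hy3 value of the conditioned group, from 8.62 for miR-669c to 8.99 for miR-669c*. For miR-669p* the signal was 8.56, 8.63, 8.47 and 8.59 in the home cage and 8.86, 8.71, 8.99 and 8.502 after conditioning, so 3 conditioned arrays lay above the home cage range and array 4 inside it. Its difference was 0.20 (SE 0.099, 95% interval -0.024 to 0.43) in Hy3 and 0.26 (SE 0.11, 95% interval 0.016 to 0.50) in the ratio. miR-669f-3p was at 8.40, 8.36, 8.44 and 8.41 in the home cage and 8.52, 8.53, 8.71 and 8.37 after conditioning, with array 4 again the only conditioned array inside the home cage range. It differed by 0.13 (SE 0.065, 95% interval -0.021 to 0.28) in Hy3 and 0.21 in the ratio.

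The remaining members of this set overlapped widely in Hy3. miR-669c* was at 8.75, 8.62, 8.61 and 8.63 in the home cage and 8.70, 8.71, 8.99 and 8.58 after conditioning, a difference of 0.095 (SE 0.085, 95% interval -0.10 to 0.29) that was 0.012 without fear conditioned array 3. miR-466f-3p was at 8.82, 8.73, 8.76 and 8.73 in the home cage and 8.76, 8.70, 8.96 and 8.66 after conditioning, a difference of 0.014 (SE 0.063, 95% interval -0.13 to 0.16), which turned to -0.048 without fear conditioned array 3 and to -0.030 with flagged spots kept. Its ratio, however, was 0.090, 0.053, 0.17 and 0.071 in the home cage and 0.16, 0.19, 0.53 and 0.66 after conditioning, with fear conditioned arrays 3 and 4 far above the rest and array 1 inside the home cage range. The unmarked miR-669c differed by -0.071 (SE 0.064, 95% interval -0.22 to 0.078) in Hy3 and by 0.071 in the ratio, and was at 0.23 with median centring and 0.020 with spike-in centring.

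In the ratio the smallest p of a higher member was that of miR-467f, the CACACA strand on chromosome 11 shown above. Its ratio was -0.089, -0.23, -0.27 and -0.031 on home cage arrays 1 to 4 and 0.029, 0.034, 0.27 and 0.17 on fear conditioned arrays 1 to 4. The home cage values were all below 0 and the conditioned values all above 0. The difference was 0.28 (SE 0.077, 95% interval 0.11 to 0.45), with an unadjusted p of 0.00440 and an adjusted p of 0.584 in limma. In Hy3 the signal was 8.29, 8.30, 8.14 and 8.36 in the home cage and 8.43, 8.29, 8.53 and 8.35 after conditioning, overlapping, with a difference of 0.13 (SE 0.064, 95% interval -0.021 to 0.27). Besides miR-467f, the members whose ratios stood apart were miR-466f (0.29), miR-669n, miR-669o-5p, miR-466i-5p, miR-466n-5p (0.15) and miR-669a-5p/miR-669p (0.23). All 7, miR-467f included, are named 5p or carry no arm, which was seen after their values were known.

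Of the 5 members with a ratio difference below 0, the one with the smallest p was miR-466l-5p, at -0.096 (SE 0.079). Its probe was above the controls on no array, so its Hy3 signal is only a bound and no change is read from it. Home cage array 2 alone held a high ratio there, 0.37, against at most 0.12 on any other array.

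All 4 numbers leaned the same way in the ratio. Read as sample to pool, all 5 members of miR-297, 23 of 26 of miR-466, all 13 of miR-467 and 25 of 27 of miR-669 were above 0. The median ratio differences were 0.076, 0.11, 0.095 and 0.11 in the same order. With the sign turned the counts above 0 were 0, 3, 0 and 2. In Hy3 the counts above 0 were 3, 15, 10 and 18, with medians of 0.062, 0.029, 0.068 and 0.033. The 8 members from hairpins outside Sfmbt2 were all above 0 in the ratio, with a median of 0.16, and 52 of the 57 from inside it were, with a median of 0.11. In Hy3 4 of 8 and 38 of 57 were above 0.

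Pairs of probes for opposite strands of one hairpin allow the arms to be set beside each other within a precursor. There were 36 such pairs, some sharing a probe, and in 26 both strands were above the controls on all 8 arrays. The 3p or asterisked strand was above 0 in Hy3 in 31 of the 36 pairs and its partner in 19. The 3p or asterisked strand had the larger Hy3 difference in 25 pairs and the larger ratio difference in 23. In miR-467b the Hy3 difference was 0.094 for the asterisked and -0.18 for the unmarked strand.

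Probes that share a name did not always give the same value. The name miR-466a-3p is on the probe of 5 names, which differed by 0.062 in Hy3, and on a probe shared with miR-466e-3p, which differed by -0.041. The ratio differences of these probes were 0.12 and 0.10. The name miR-466a-5p is on a pair of probes with Hy3 differences of 0.030 and 0.052 and ratio differences of 0.11 and 0.11. For miR-669d-2* the Hy3 differences were 0.16 for the probe it shares with miR-669d* and 0.14 for its own, while the ratio differences were 0.021 and 0.25. The last of these rests on home cage array 1, whose ratio was -0.62 against 0.0055, -0.098 and 0.13 on the other home cage arrays.

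Home cage array 1 stood apart in its local background. On it 25 of the 284 member spots, on 14 members, had a local background more than 2 times the median of the array, and 1189 of all 10488 capture spots did. On the other arrays 0 or 1 member spots did. Its flagged member spots numbered 35, against 17 to 23 elsewhere. Of these 14 members, 8 were lower on home cage array 1 than on any other home cage array and 6 lay within the range of the others. The 5 with the widest gap were picked after their values were seen. Among them, miR-669l read 6.87 against 7.48 to 7.63 on the other home cage arrays, and 7.49 once those spots were left out. The probe of miR-669a-3p/miR-669o-3p read 7.49 and 8.10 without those spots, and miR-669f-5p 7.17 and 7.66. For miR-466i-3p it was 7.32 and 7.65, and for miR-669e* 7.09 and 7.29.

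Among the largest Hy3 differences of the family were those of 3 of these members. miR-669a-3p/miR-669o-3p, at 0.22 (SE 0.13, 95% interval -0.080 to 0.53), miR-669f-5p, at 0.19 (SE 0.12, 95% interval -0.081 to 0.47), and miR-669l, at 0.17 (SE 0.15, 95% interval -0.18 to 0.53), had wide intervals that included 0. Leaving out all spots of high local background, an alternative added after the data were seen, kept the family's median at 0.042 and took the members at an unadjusted p under 0.05 from 10 to 16, with 0 passing after adjustment. The count of members whose groups stood apart went from 4 to 6. How many of all mouse probes met these limits in that setting was not counted. The counts are therefore not read as a result about the family.

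**Figure D5:**
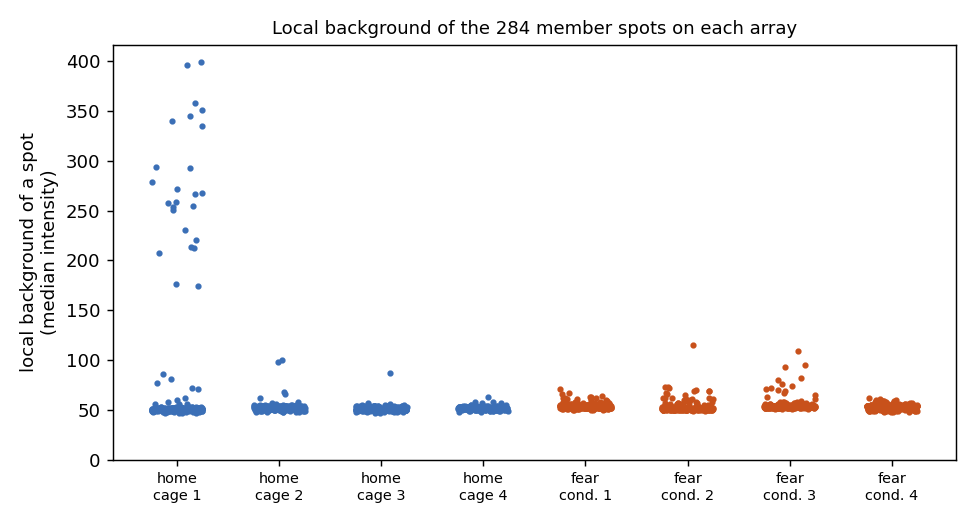
Local background intensity of the 284 member spots on each array (linear scale from 0, points spread sideways at random). On home cage array 1, 25 spots lie above 2 times the array's median background of 51, while on the other arrays nearly all spots lie close to medians of 51 to 54.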

How the data were processed

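Per the labels, Hy3-labelled RNA of each mouse was hybridised with a Hy5-labelled pool to an LNA miRNA array. The scanner files deposited by the authors hold linear intensity, 1 mean spot signal and 1 median local background intensity per spot, with a flag, for a single channel. The channel is taken as Hy3, the dye of the mouse, because the 180 landmark spots named Hy3 were lit on every array (median signal 3581 to 4422, against 65.7 to 69.7 for negative controls). A value table deposited by the authors holds a log ratio for each probe, read here as log2 and likely of mouse to pool, since its deviations from the probe means correlated with those of the channel on every array (0.43 to 0.82 over 80 bright probes). Base, normalization, direction and software of the ratios were not given in the sources used here. Column medians were 0.0014, 0.018, 0.018 and 0.014 for home cage mice and 0.029, 0.018, 0.022 and 0.022 for conditioned mice. Between 15 and 26 values per array were missing.

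A within-array fit of both colours was not possible with 1 channel. Intensity was corrected with normexp (offset 50) and quantile normalized between arrays over 10488 of 12312 spots with limma 3.58.1 (R 4.3.3). Control spots and spots flagged 3 or 4 were left out, and the 4 spots of a member were averaged on the log2 scale. The offset makes differences of dim probes smaller than they were. Groups, taken from the sample titles, were set against each other in limma (lmFit, then eBayes; two-sided) with Benjamini-Hochberg adjustment over all mouse probes at 0.05 and no block. The fit was tested on simulated data. Same-numbered arrays were not treated as pairs. Over mouse probes, the correlations of their deviations from the group means were -0.073, -0.026, -0.53 and -0.0034 in Hy3. These values cannot show whether same-numbered mice were handled together. Each array was its own slide, so slide and mouse cannot be told apart.

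Members named in detail were any that passed, the 6 higher and 6 lower with the smallest unadjusted Hy3 p among those clearing the negative controls on 4 or more arrays, the 6 with the highest signal, and the smallest ratio p each way. A few others are named in the text for an array, a shared probe or groups that stood apart, after their values were seen. The members and lists were chosen with earlier results of these data known. Alternatives changed the offset (10), background correction, scaling, flags, filter, source of values, block, negative control limit and arrays. Figures were drawn with matplotlib 3.10.9.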

Additional observations from a re-analysis of the deposited data

Results flagged for a closer look

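Among 80 groups of 4 arrays checked, 76 for the named members and 4 for the family and all-mouse ratio medians, 7 held an array set apart from the other 3 by more than Dixon's 95% limit, where chance flags about 1 group in 20. In Hy3, home cage array 4 was high for miR-669d-2* (6.859, against 6.791 to 6.799 on the other 3) and for the probe of miR-466a-3p, miR-466b-3p, miR-466c-3p, miR-466e-3p and miR-466p-3p (7.519, against 7.481 to 7.485). Fear conditioned array 2 was low for miR-297c (6.63, against 6.698 to 6.71). In the ratio, home cage array 4 was high for miR-669m-3p (0.2652, against 0.05984 to 0.07944), and fear conditioned array 4 was low for miR-467b (0.04268, against 0.1884 to 0.2078). Home cage array 2 was low for miR-669f-3p (-0.2406, against 0.007039 to 0.03701) and high for miR-466l-5p (0.3702, against 0.06925 to 0.1022). Home cage array 4 accounts for 3 of the 7.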

How the results depend on the processing

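No member passed after adjustment in any setting of Hy3 or the ratio, all of which use the same 8 arrays. Calls over all mouse probes in Hy3 went from 2 to 0 with no background correction, median or spike-in centring or the ratio, and to 1 with flagged spots kept or only probes above the controls tested; they ranged from 0 to 2 with 1 array left out. Members at an unadjusted p under 0.05 in Hy3 went from 10 to 0 with spike-in centring, 6 with flagged spots kept, 5 among probes above the controls and 16 without spots of high background, and from 3 (without home cage array 3) to 12 with 1 array left out, with 5 without home cage array 1. In the ratio they ranged from 6 to 20 around 15, with 6 when home cage array 2 or conditioned array 3 was omitted and 9 when conditioned array 4 was. Members whose groups stood apart in Hy3 went from 4 to 2 with no background correction, 1 with median centring, 0 with spike-in centring and 7 in the ratio, and from 5 to 13 with 1 array left out, where fewer arrays overlap less often by construction. For unadjusted p and for groups apart, shares of all mouse probes were counted only in the main Hy3 and ratio fits. Shifts in the member counts between settings are therefore not read as particular to the family. The Hy3 median went from 0.042 to 0.23 with median centring and to 0.11 in the ratio, and from 0.014 to 0.058 with 1 array left out. With the replicate number as a block, although no pairing of the arrays is known, Hy3 gave 0 calls and 4 members at an unadjusted p under 0.05, and the ratio 14. Among values for named members, 298 kept their direction and 24 turned. With no background correction these were miR-669d-2* (-0.047), miR-669o-5p (0.0076), miR-669n (0.020) and miR-466l-5p (0.023). With median centring they were miR-669o-5p (0.18), miR-467b (0.032), miR-466f-5p (0.089), miR-669n (0.22), miR-466i-5p (0.22) and miR-669c (0.23). With spike-in centring they were miR-297c (-0.053), miR-669n (0.0076), miR-466i-5p (0.012) and miR-669c (0.020). In the ratio they were miR-669o-5p (0.20), miR-467b (0.092), miR-466f-5p (0.026), miR-669n (0.25), miR-466i-5p (0.19) and miR-669c (0.071). With flagged spots kept miR-466f-3p was at -0.030; with 1 array left out it ran from -0.048, when conditioned array 3 was omitted, to 0.050. miR-466l-5p ran from -0.022 to 0.0058 with 1 array left out, and was above 0 when home cage array 1 (0.0058) or 2 (0.00066) was omitted. The cause of these turns was not tested. Signals near the negative controls limit what can be read for 13 members above them on fewer than 4 arrays.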

Other observations

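Repeat letters like those of the family occur in miRNAs of other numbers. Of the mouse probes outside the family with a RefSeq mature sequence in the set counted above, 8 hold such letters. They hold UGUGUG (miR-291a-3p, miR-574-5p, miR-1187, miR-3082-5p and miR-3097-5p) or CACACA (miR-342-3p, miR-574-3p and miR-713). Of the 8, 6 cleared the controls on all 8 arrays, against 100 of 263 probes that hold neither. In the ratio, read as sample to pool, 6 of these 8 were above 0 with a median difference of 0.099, against 152 of 263 probes with neither letters and a median of 0.019. In Hy3 2 of the 8 were above 0 with a median of -0.053, against 131 of 263. Those above 0 were miR-713 at 0.14 and miR-3097-5p at 0.088, with adjusted p of 0.209 and 0.344 in limma. The higher ratios were those of miR-3082-5p at 0.26 and miR-574-5p at 0.19, both with an adjusted p of 0.594 in limma, and their Hy3 differences were -0.12 and -0.023. With 8 probes these counts are a description, and no test was made over them.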
